A study of Mus musculus with 24 samples.

Results

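In high glucose, cells labelled as hypothalamic and given mogroside V at dose labels 2 and 3 (HG2 and HG3, 5 libraries together) were set against cells given dose label 1 in the same medium (HG1, 3 libraries). These are 8 of the 23 distinct libraries of the series, chosen by their titles, and no untreated control enters the comparison. Snrpd3 of the spliceosome and Lmnb1 of the nuclear lamina rose in HG2 and HG3, and the lysosomal genes Psap and Lamp1 and the phosphatase gene Ppp1ca fell. Of 77 ribosomal protein genes 27 fell, and of 378 annotated pseudogenes 40 rose. Among the 15 ribosomal protein genes for which no near-identical copy was found, 0 fell. Calls were not stable: they numbered 72 to 670 when 1 library was left out. With the share of counts on processed pseudogenes as a covariate 2 genes passed. Psap and Lamp1 did not pass with all 23 libraries in the fit. Taken apart, HG2 against HG1 had 177 rises and 153 falls, and HG3 against HG1 had 9 and 2. Lamp1 was not among the falls in HG3. Changes were small: a change of 2-fold or more was reached by 17 of 206 rises and 9 of 214 falls; all rises and all falls are 1.73% and 1.79% of all genes tested.

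The cells are labelled as a cell line of mouse hypothalamic cells, with no clone or supplier named, and described in the series design as adult hypothalamus neurons in culture. No strain, age, treatment time or glucose concentration is given in the labels used here. Mogroside V is the main sweet triterpene glycoside of monk fruit. The design lists 15, 60 and 160 µM, but which of these belongs to which dose label is not stated, so groups are named by the labels alone. The groups in high glucose were HG2, HG3, HG1 and an untreated control (HGC), and NG2, NG3, NG1 and NGC were their counterparts in normal glucose, with 3 files each. The files of HG2 replicate 3 and HG3 replicate 2 were identical on all 56946 lines. That library cannot be assigned to 1 dose, was used once in the pooled comparison, and was left out where HG2 and HG3 were taken apart.

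Hypothalamic neurons sense glucose and hormones such as insulin and leptin and use them to set feeding and energy use. Glucose that enters a neuron is burnt through glycolysis, the citrate cycle and the respiratory chain, and the chain is built from subunits encoded in both the nucleus and the mitochondrion. Most ribosomal proteins are encoded by a single spliced gene each, from which many intronless pseudogene copies have arisen across mouse chromosomes.

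The 8 libraries held 3272671 to 3915059 gene counts, and log2 changes in the pooled comparison had a standard error of 0.18 at the median gene. Whether replicates are separate cultures is not stated, and p-values then measure only how these libraries spread, which may be technical variation. None of 8 library measures passed between the groups after adjustment (lowest exact 2-sided permutation p = 0.0714, adjusted p = 0.381, smallest p possible before adjustment 0.0179). With adjustment over the 8 measures, a single measure could not pass even if its groups were fully separated. The test therefore cannot show that the groups were alike in these measures. The share of mitochondrial genes, which had the p of 0.0714, was 7.20, 6.85, 7.17, 7.03 and 7.33% in HG2 and HG3, against 7.33, 7.70 and 7.61% in HG1. Processed pseudogenes took 1.48, 1.33, 1.49, 1.33 and 1.35% of gene counts in HG2 and HG3, against 0.979, 0.958 and 1.34% in HG1 (exact permutation p = 0.107). Only HG1 replicate 3 lay within the range of HG2 and HG3. The number of calls below depended on this library.

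The neuronal label was checked against defining genes. Tubb3, the neuronal beta-tubulin, was read at 60.8, 53.9, 55.8, 48.7 and 58.6 CPM in HG2 and HG3 and 50.1, 52.5 and 53.7 CPM in HG1. Rbfox3, which encodes the NeuN antigen of mature neurons, was at most 0.263 CPM in HG2 and HG3 and 1.11 CPM in HG1, and Elavl4 was at 0 in all 8. Of 24 neuropeptides and their receptors, Npy, Agrp and Pomc among them, 13 were at 0 and 20 under 1 CPM in all 8. Those above were Gnrh1, at 1.32 to 5.63 CPM over the 8, and the receptors Npy1r, Adipor1 and Adipor2. The word hypothalamic is thus taken from the labels and was not borne out by these genes. Of the 12 neuronal markers 4 (Snap25, Syt1, Elavl3 and Elavl4) were under 1 CPM in all 8, and Map2 was at 33.7 to 43.3 CPM. The word neurons was thus borne out by only some of these markers. The 12 neuronal markers summed to 120.2 to 137 CPM in HG2 and HG3, against 125 to 132 CPM in HG1, and none of the 6 tested passed. The 8 fibroblast and pericyte markers summed to 7155 to 8093 CPM in HG2 and HG3 and 7774 to 7931 CPM in HG1, ranges that overlap, and none of 7 tested passed. The astrocyte and tanycyte markers summed to 2818 to 3301 CPM in HG2 and HG3, against 3459 to 3925 CPM in HG1, without overlap. Nearly all of that sum was Vim, the intermediate filament vimentin that mesenchymal cells make too, which was the only call of 4 tested (-0.27 ± 0.07, adjusted p = 0.0265). That call held in 3 of 8 fits that left out a library and was lost with all 23 libraries in the fit (adjusted p = 0.116). Aqp4 was at 0 in all 8 and Gfap in all but HG3 replicate 1. The part of this marker sum in the results below was not tested. Microglia and oligodendrocyte markers gave no call, and their members stood at unlike levels. Itgam, Olig1, Olig2 and Sox10 were at 0 in all 8. Tmem119 of the microglia list was at 137 to 163 CPM in HG2 and HG3 and 153 to 170 CPM in HG1. Pdgfra and Cspg4 of the oligodendrocyte list were at 33.5 to 45.1 and 39.1 to 52.4 CPM in HG2 and HG3. In HG1 they were at 39.8 to 44.0 and 43.7 to 54.2 CPM. Cdh5, a defining endothelial gene, was at 0 in all 8. The 4 haemoglobin genes, which mark red cells, summed to 7.50 to 96.8 CPM in HG2 and HG3 and 25.1 to 48.4 CPM in HG1, with no call. In bulk RNA, fewer cells of a type and less RNA per cell cannot be told apart.

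Of 11939 genes that passed the low-count filter, 206 were higher in HG2 and HG3 and 214 lower at an adjusted p under 0.05, which is 1.73% rising and 1.79% falling of the genes tested. The median log2 change over all tested genes was 0.00, and over the called genes the median size was 0.56 for rises and 0.48 for falls. In 152 of the rises and 165 of the falls, the libraries of the groups did not overlap, which was so for 1122 of all tested genes. Called genes came unevenly from the genome's multicopy genes. Near-identical copies, taken as at least 95% identity over 150 or more bases and at least 50% of the shorter transcript, were found in the GENCODE M21 annotation for 26.2% of the rises and 30.4% of the falls, against 5.6% of all tested genes. Reads of such genes can be split or dropped between copies in counting, so their values are uncertain. The 149 rises and 147 falls among 11131 genes that have no such copy and are not annotated pseudogenes are described first.

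**Figure D1:**
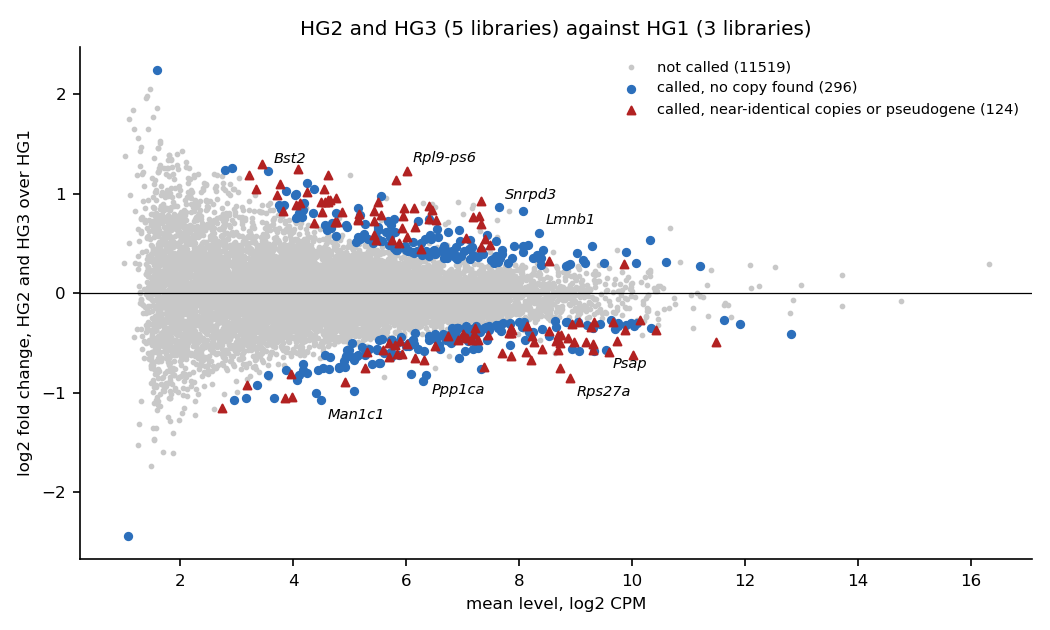
Mean level (log2 CPM, horizontal) and log2 fold change of HG2 and HG3 over HG1 (vertical) of the 11939 genes tested. Called genes are split by whether they have near-identical copies or are pseudogenes. Called genes lie on both sides, and triangles for genes with copies or pseudogenes lie both above and below 0.

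Among genes without copies, the rise with the lowest p was Snrpd3, which encodes a core Sm protein of the spliceosomal snRNPs. It was read at 260.4, 294, 229, 228 and 195 CPM in HG2 replicates 1 and 2, the shared library and HG3 replicates 1 and 3, against 139, 119 and 143 CPM in HG1 replicates 1 to 3. All 5 values lay above all 3, with log2 change 0.86 ± 0.10 SE, adjusted p = 4.36e-06. Lmnb1, which encodes lamin B1 of the nuclear lamina, was at 354, 414, 359, 383 and 385 CPM in the same order, against 269, 227 and 253 CPM in HG1. These did not overlap either, and the groups averaged 379 ± 24.2 CPM in HG2 and HG3 and 250.0 ± 21.4 CPM in HG1 (SD, n = 5 and 3; log2 change 0.61 ± 0.09 SE, adjusted p = 1.55e-05). Ociad1, of the OCIA domain family, had 94.9, 120.2, 103, 85.9 and 98.3 CPM in HG2 and HG3 and 55.9, 65.7 and 58.7 CPM in HG1 without overlap (log2 change 0.75 ± 0.12 SE, adjusted p = 6.32e-05). Tmem63b, which encodes an osmosensitive cation channel, averaged 57.5 ± 12.9 CPM in HG2 and HG3 and 29.3 ± 4.90 CPM in HG1 (log2 change 0.98 ± 0.16 SE, adjusted p = 0.000152).

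Genes of stress responses, mitochondria, RNA decay and the cytoskeleton were also among the rises, and no near-identical copy was found for those named next. Atf5, a bZIP transcription factor of the integrated and mitochondrial stress responses, was at 86.9, 87.2, 107, 83.8 and 72.2 CPM in HG2 and HG3, against 45.4, 45.3 and 67.9 CPM in HG1 (log2 change 0.73 ± 0.13 SE, adjusted p = 0.000636). The libraries did not overlap, but HG1 replicate 3 came close to HG3 replicate 3. Upf1, the helicase of nonsense-mediated decay, rose by 0.86 ± 0.16 on the log2 scale. Mcu, the pore of the mitochondrial calcium uniporter, rose by 0.43 ± 0.09 with a narrow spread in both groups (178 ± 6.44 CPM in HG2 and HG3 and 132 ± 5.21 CPM in HG1). Aldh2, the mitochondrial aldehyde dehydrogenase, rose by 0.65 ± 0.12, and Arpc3, a subunit of the actin-branching Arp2/3 complex, by 0.63 ± 0.11. Adgrl1, the adhesion receptor latrophilin 1, rose by 0.53 ± 0.10. Bst2, which encodes the antiviral membrane tether tetherin, had 17.5, 17.03, 13.6, 14.2 and 9.44 CPM in HG2 and HG3, against 5.81, 4.02 and 8.63 CPM in HG1 (log2 change 1.23 ± 0.28 SE, adjusted p = 0.00573). It is a low gene whose 5 higher libraries reached down to 9.44 CPM, just above the highest HG1 library, and its call was lost in 1 of the 8 fits that left out a library (highest adjusted p = 0.148).

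The fall with the lowest p was Ppp1ca, which encodes the alpha catalytic subunit of protein phosphatase 1. It was read at 68.8, 62.7, 54.9, 62.7 and 67.2 CPM in HG2 and HG3, against 112, 127 and 99.4 CPM in HG1. Every library of HG2 and HG3 was below every HG1 library, with log2 change -0.82 ± 0.11 SE, adjusted p = 6.40e-06. Psap, which encodes prosaposin, the precursor of the lysosomal saposins, was at 622, 659.6, 554, 633 and 712 CPM in HG2 and HG3 and 950.1, 1059 and 835 CPM in HG1 (log2 change -0.57 ± 0.08 SE, adjusted p = 2.04e-05). Lamp1, a major glycoprotein of the lysosomal membrane, stood at 493, 398, 397, 478 and 519 CPM in HG2 and HG3, against 663, 802 and 596 CPM in HG1 (log2 change -0.58 ± 0.09 SE, adjusted p = 0.000230). Neither lysosomal gene overlapped between the groups. Fam162a, which encodes a mitochondrial protein, had 46.3, 51.4, 48.6, 53.7 and 62.8 CPM in HG2 and HG3 and 98.2, 109 and 71.8 CPM in HG1, where replicate 3 was the lowest (log2 change -0.82 ± 0.12 SE, adjusted p = 5.31e-05). Myl6, a myosin light chain, averaged 418 ± 38.8 CPM in HG2 and HG3 and 618 ± 108 CPM in HG1 (log2 change -0.56 ± 0.09 SE, adjusted p = 0.000152).

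Of the genes with the largest falls, Man1c1, a Golgi mannosidase that trims N-glycans, had 14.2, 16.5, 12.9, 13.4 and 21.1 CPM in HG2 and HG3, against 31.3, 46.6 and 21.7 CPM in HG1 (log2 change -1.07 ± 0.20 SE, adjusted p = 0.000820). HG3 replicate 3 and HG1 replicate 3 nearly met, and in 1 of the 8 fits that left out a library the call was lost, with an adjusted p of 0.138. Rasl11b, a small Ras-like GTPase, fell by 1.01 on the log2 scale (15.1 ± 3.18 CPM in HG2 and HG3 and 30.5 ± 9.36 CPM in HG1). Sned1, an extracellular matrix glycoprotein, averaged 24.4 ± 7.98 CPM in HG2 and HG3 and 48.5 ± 5.91 CPM in HG1 (log2 change -0.98 ± 0.18 SE, adjusted p = 0.00106). Gstp1, a glutathione S-transferase with 2 near-identical copies, averaged 10.9 ± 2.07 CPM in HG2 and HG3 and 22.6 ± 2.17 CPM in HG1 (log2 change -1.04 ± 0.21 SE, adjusted p = 0.00168). Igfbp7, a secreted IGF-binding protein, fell to 102 CPM in HG2 and HG3, against 160.4 CPM in HG1 (log2 change -0.65 ± 0.10). Adamts1, a secreted metalloproteinase, changed by -0.52 ± 0.09 and Nbr1, a receptor for selective autophagy, by -0.60 ± 0.13. The other largest changes with a mean of 5 CPM or more were genes known by number: Gm38111 (1.24 ± 0.35) and Gm9774 (1.05 ± 0.22) rose, and Gm37274 (-1.06 ± 0.26), the pseudogene Gm49221 (-1.05 ± 0.23), Gm28791 (-1.05 ± 0.28) and ENSMUSG00000119589 (-0.92 ± 0.26) fell.

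Of the 420 called genes, 65 (32 rises and 33 falls) were called in each of the 8 fits that left out 1 library, and 33 of them have near-identical copies. Snrpd3, Lmnb1, Ociad1, Tmem63b, Atf5, Upf1, Mcu, Aldh2, Arpc3, Adgrl1, Ppp1ca, Psap, Lamp1, Fam162a, Myl6, Sned1, Igfbp7, Adamts1 and Nbr1 are among them, and those the naming rule did not take were picked after their values were seen. The number of calls turned on HG1: without HG1 replicate 2 it was 38 rises and 34 falls, without replicate 1 76 and 114, and without replicate 3 363 and 307. Without HG2 replicate 2 it was 134 and 128. The fit over all 23 libraries also pooled NG2 with NG3, with the filter and scaling redone. Its coefficient of variation between libraries of a group was 0.147, against 0.118 in the main fit. In the fit of the treated libraries of both media it was 0.148, and 0.130 without NG3 replicate 3. With the spread estimated from all 23 libraries, 24 rises and 54 falls were left, all of them among the calls above. Snrpd3, Lmnb1, Ociad1, Atf5, Mcu, Aldh2, Ppp1ca, Fam162a, Man1c1 and Igfbp7 were among these, and Psap (adjusted p = 0.108), Lamp1 (0.0575), Tmem63b (0.0580) and Myl6 (0.0887) were not.

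**Figure D2:**
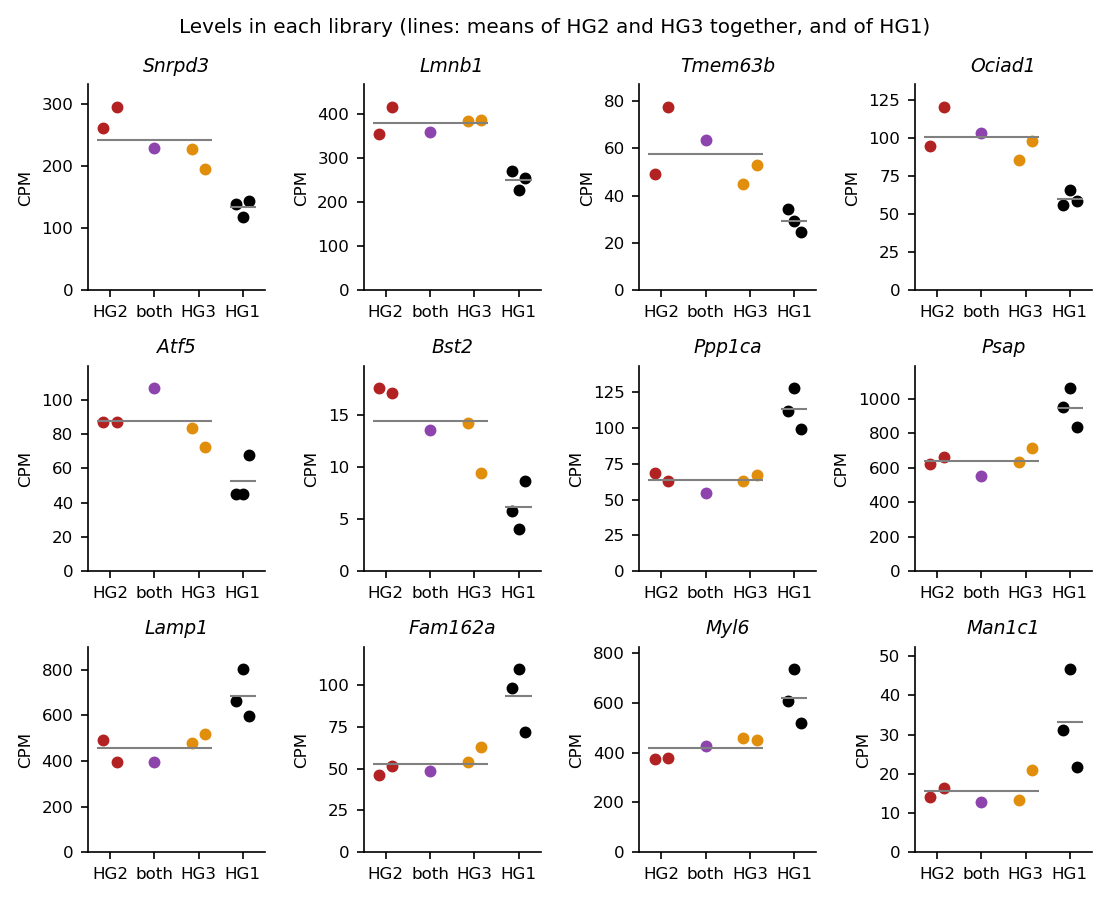
Level in CPM (vertical) of 12 genes in each library of HG2, the library deposited under both HG2 and HG3, HG3 and HG1. Horizontal lines are the means of the 5 libraries of HG2 and HG3 and of the 3 of HG1. The groups do not overlap in any panel, which the naming rule required for some of these genes.

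Lists of genes by function were read against the background of 1.73% rising and 1.79% falling over all tested genes. In the lysosome and autophagy list 0 rose and 4 fell of 31, with a median log2 change of -0.01. Beside Psap and Lamp1 these were Ctsa, the protective protein cathepsin A (-0.47 ± 0.13, adjusted p = 0.0211), and Hexa, a subunit of beta-hexosaminidase (-0.35 ± 0.10, adjusted p = 0.0345). With the spread of all 23 libraries none of the 31 passed, and leaving out 1 library gave 2 to 6 falls. In the proteasome list 0 rose and 4 fell of 22: Psma1 (-0.42 ± 0.10, adjusted p = 0.00815), Psma4 (-0.37 ± 0.09, adjusted p = 0.00630), Psma3 (-0.35 ± 0.09, adjusted p = 0.0157) and Psmb4 (-0.29 ± 0.08, adjusted p = 0.0342), all of them subunits of the 20S core. Psma3 and Psma4 have near-identical copies, and none of the 4 passed with the spread of all 23 libraries. Leaving out 1 library gave 0 to 4 falls.

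Of the nuclear genes of the respiratory chain in the list, 0 rose and 2 fell of 22, with a median log2 change of -0.15. Uqcrfs1, the Rieske iron-sulphur protein of complex III, was at 79.8, 72.8, 87.7, 83.5 and 91.6 CPM in HG2 and HG3, against 138, 135 and 96.6 CPM in HG1 (log2 change -0.56 ± 0.11 SE, adjusted p = 0.00113). Cox5a, of complex IV, changed by -0.63 ± 0.18 (adjusted p = 0.0381), with HG3 replicate 1 above HG1 replicate 3, and was called in only 2 of 8 fits that left out a library. With all 23 libraries in the fit its call was lost (adjusted p = 0.433) and that of Uqcrfs1 held (0.0242). Over all 74 tested genes named Nduf, Uqcr, Cox or Atp5, a set picked after the values were seen, 1 rose and 13 fell, with a median of -0.14. The rise was Ndufa12, an accessory subunit of complex I, which has a near-identical copy, at 184, 180.4, 182, 211 and 204 CPM in HG2 and HG3 and 131, 123 and 144 CPM in HG1 (log2 change 0.55 ± 0.09 SE, adjusted p = 0.000239). Ndufb3, another accessory subunit of complex I, went the other way, at 140.3, 105, 115, 124 and 157 CPM in HG2 and HG3, against 206, 266 and 185 CPM in HG1 (log2 change -0.76 ± 0.11 SE, adjusted p = 0.000235). Atp5j, coupling factor 6 of ATP synthase, fell by 0.55 and Usmg5, a small membrane subunit of the same enzyme, by 0.67 on the log2 scale, with a near-identical copy found for Usmg5. Among genes encoded in mitochondrial DNA, 0 rose and 1 fell of 8. The fall was mt-Cytb, cytochrome b, at 6498, 5942, 6158, 5951 and 7866 CPM in HG2 and HG3 and 8089, 10064 and 7844 CPM in HG1 (log2 change -0.41 ± 0.09 SE, adjusted p = 0.00351), where HG3 replicate 3 overlapped HG1 replicate 3.

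Genes of glucose and carbon use gave single calls. Slc16a3, the lactate exporter MCT4, was at 22.5, 15.2, 25.6, 21.9 and 19.2 CPM in HG2 and HG3, against 10.2, 9.65 and 16.98 CPM in HG1 (log2 change 0.77 ± 0.22 SE, adjusted p = 0.0392), with overlap. It was the only call of 20 in the glycolysis list. Tkt, transketolase of the pentose phosphate pathway, rose by 0.61 ± 0.15 (adjusted p = 0.0109). G6pc3, a glucose-6-phosphatase, was at 17.8, 19.4, 18.3, 25.8 and 29.2 CPM in HG2 and HG3 and 33.5, 44.8 and 34.0 CPM in HG1, without overlap (log2 change -0.75 ± 0.17 SE, adjusted p = 0.00637). In the tricarboxylic acid cycle Mdh2 rose (0.30 ± 0.08, adjusted p = 0.0245) and Idh3b fell (-0.47 ± 0.13, adjusted p = 0.0242) out of 20. Gsk3b, the kinase that restrains glycogen synthase, was the only call of 25 in insulin, IGF and leptin signalling (0.35 ± 0.09, adjusted p = 0.0151). None of these 6 calls held in all 8 fits that left out a library, and none passed with the spread of all 23 libraries.

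Of 26 genes for glucose handling, insulin action, feeding and sweet taste, 14 were high enough to test and none passed. Txnip, the glucose-induced inhibitor of thioredoxin, was at 95.5, 91.1, 71.6, 86.1 and 109 CPM in HG2 and HG3, against 117, 112 and 104 CPM in HG1 (log2 change -0.28 ± 0.11 SE, adjusted p = 0.153). Slc2a1, the glucose transporter GLUT1, was at 32.0, 35.1, 34.1, 41.1 and 41.7 CPM in HG2 and HG3 and 50.9, 43.7 and 42.0 CPM in HG1, which do not overlap but did not pass (log2 change -0.30 ± 0.14 SE, adjusted p = 0.282). Hk2, hexokinase 2, changed by -0.20 ± 0.12, Irs1 by -0.24 ± 0.14 and Foxo1 by 0.01 ± 0.17. Tas1r2 and Tas1r3, subunits of the sweet taste receptor, reached at most 0.315 and 1.29 CPM in HG2 and HG3 and 0.835 and 0 CPM in HG1 and were not tested.

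Stress and signalling lists held a few calls each. Of the integrated stress response 1 rose and 0 fell of 23, which was Atf5, and of the ER chaperones 1 rose and 0 fell of 22. That gene was Pdia3, a disulphide isomerase of the ER, at 819, 765, 700.3, 619 and 614 CPM in HG2 and HG3, against 508, 443 and 581 CPM in HG1 (log2 change 0.47 ± 0.09 SE, adjusted p = 0.00217). In the antioxidant list Hmox1, haem oxygenase 1, rose (0.59 ± 0.16, adjusted p = 0.0201) and Txn1, thioredoxin, fell (-0.33 ± 0.08, adjusted p = 0.00488), so its members moved both ways. Heat shock genes did so too, with Hspa8 up (0.29 ± 0.08, adjusted p = 0.0273) and Cryab down (-0.39 ± 0.09, adjusted p = 0.00466). YAP targets had 2 rises of 12, Ccn2 (0.38 ± 0.09, adjusted p = 0.00887) and the receptor kinase Axl (0.28 ± 0.08, adjusted p = 0.0301). Mt2, metallothionein 2, rose (0.36 ± 0.09, adjusted p = 0.0176), as did Cdkn1a, the p53-induced cell cycle inhibitor p21 (0.33 ± 0.09, adjusted p = 0.0305). In DNA replication, Mcm2 rose (0.32 ± 0.09, adjusted p = 0.0262) and Mcm4 fell (-0.30 ± 0.09, adjusted p = 0.0342), both of them subunits of the replicative helicase. Single calls stood in further lists. Fabp5, a fatty acid binding protein, fell (-0.39 ± 0.10, adjusted p = 0.00982), as did Higd1a, a hypoxia-induced mitochondrial protein with a near-identical copy (-0.65 ± 0.12, adjusted p = 0.000378), and the nuclear long noncoding RNA Malat1 (-0.31 ± 0.07, adjusted p = 0.00820). The immediate early gene Ier3 rose (0.35 ± 0.09, adjusted p = 0.0190), as did Nop56, of the box C/D snoRNPs that modify ribosomal RNA (0.40 ± 0.11, adjusted p = 0.0236), and Timp2, an inhibitor of matrix metalloproteinases (0.28 ± 0.08, adjusted p = 0.0345). No gene passed of 25 mitotic, 24 cholesterol synthesis, 14 fatty acid synthesis, 15 energy sensing or 18 inflammation genes, nor of 8 for cholesterol efflux, 14 for fatty acid oxidation, 15 for the circadian clock, 10 for ERK feedback, 11 for xenobiotic response or 4 for neuropeptides and their receptors. Atf5 and Higd1a, called in all 8 fits that left out a library, were the only called members named here that passed with the spread of all 23 libraries. The other calls were lost in that fit and in 1 or more of the 8, and Cdkn1a, Mcm4 and Timp2 held in only 3 of 8. The cholesterol list had a median log2 change of -0.12, against 0.00 over all tested genes.

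**Figure D3:**
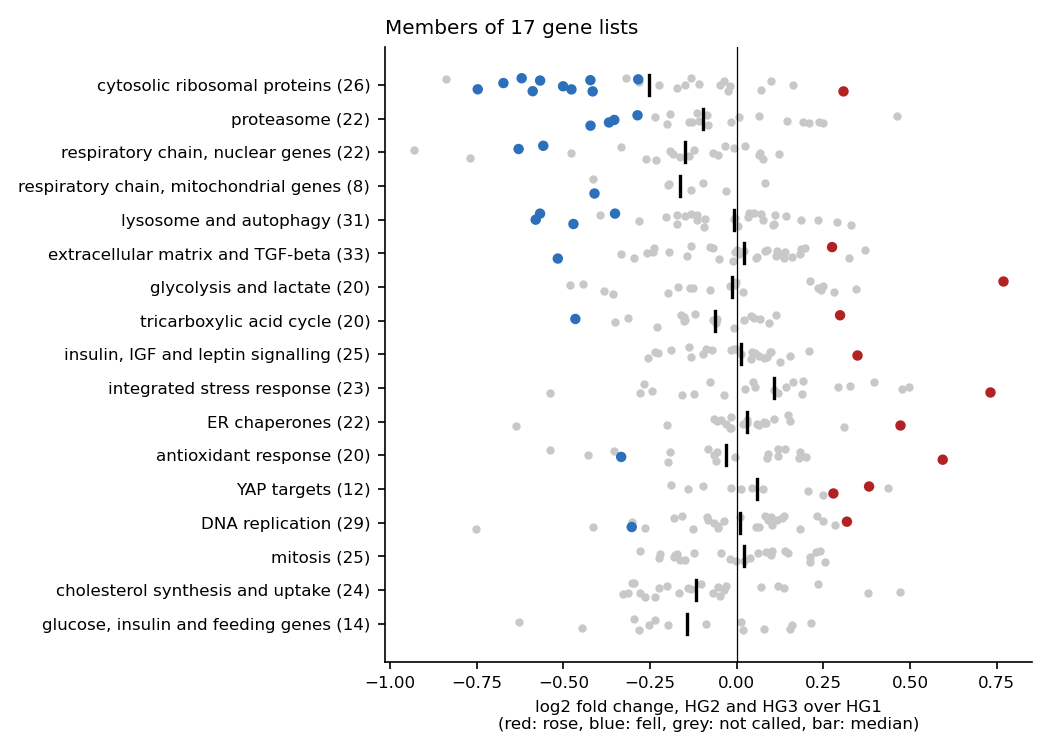
Log2 fold change of HG2 and HG3 over HG1 (horizontal) for each tested member of 17 gene lists (rows, number tested in brackets), with the list median as a bar. Most called members fell in the cytosolic ribosomal protein list, all 4 called lysosomal and all 4 called proteasome members fell, and the mitosis and cholesterol lists hold no called gene.

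Ribosomal protein genes and the pseudogenes derived from them held many of the calls. In the list of 26 cytosolic ribosomal proteins 1 rose and 10 fell, with a median log2 change of -0.25, and over all 77 tested genes named Rpl or Rps 3 rose and 27 fell. Rps27a, which encodes a fusion of ubiquitin and a small-subunit protein, was at 366, 321, 339.7, 369 and 464 CPM in HG2 and HG3, against 668, 810.4 and 541 CPM in HG1 (log2 change -0.85 ± 0.12 SE, adjusted p = 0.00104). Rps23 was at 301, 322, 345, 329 and 408 CPM in HG2 and HG3 and 579.7, 697 and 450.2 CPM in HG1 (log2 change -0.75 ± 0.11 SE, adjusted p = 0.000378), and Rpl3, of the large subunit, at 504, 464, 525, 539.7 and 675 CPM in HG2 and HG3, against 772, 931 and 718 CPM in HG1 (log2 change -0.57 ± 0.09 SE, adjusted p = 0.000378). None of these overlapped between the groups, and HG3 replicate 3 and HG1 replicate 3 were the nearest libraries in each. The rise was Rpl13 (0.31 ± 0.09, adjusted p = 0.0341), for which no near-identical copy was found. Leaving out 1 library gave 5 to 14 falls in the list. Of the listed ribosomal genes 19 of 26 have copies, and all 10 falls are among these.

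Of 378 annotated pseudogenes tested, which include copies of many gene families, 40 rose and 5 fell, with a median log2 change of 0.34. Of the 238 with a near-identical copy, 37 rose and 3 fell. Rpl9-ps6, named as a pseudogene of the large-subunit gene Rpl9 though annotated as protein-coding, was at 102, 80.8, 98.7, 64.3 and 66.9 CPM in HG2 and HG3, against 33.8, 26.8 and 45.1 CPM in HG1 (log2 change 1.23 ± 0.17 SE, adjusted p = 0.000161). Rps10-ps2 was at 89.9, 75.9, 78.2, 56.6 and 54.4 CPM in HG2 and HG3 and 28.8, 25.7 and 42.6 CPM in HG1 (log2 change 1.14 ± 0.17 SE, adjusted p = 0.000317). Ppp1ccb, a near-identical copy of the phosphatase gene Ppp1cc, stood at 23.1, 25.0, 19.6, 19.0 and 19.4 CPM in HG2 and HG3, against 10.2, 8.04 and 8.63 CPM in HG1 (log2 change 1.25 ± 0.22 SE, adjusted p = 0.000378). No library of HG2 and HG3 overlapped HG1 in these. HG2 replicates 1 and 2 lay above both HG3 libraries in all 3. The largest changes also included Gm6204 (1.30 ± 0.27), Gm6169 (1.19 ± 0.23), Gm9531 (1.19 ± 0.32) and Gm5879 (1.10 ± 0.25) among rises and Gm7691 (-1.15 ± 0.33) and Rps15a-ps8 (-0.92 ± 0.27) among falls, each of them a pseudogene or a gene with near-identical copies.

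The 3 pairs with the lowest p of a rising copy whose parent gene fell are shown as 120 coding bases, 5′ to 3′, to let the closeness of the sequences be seen. They come from GENCODE M21 transcripts of build GRCm38, the window with the most differences was taken, and capitals mark the bases that differ within a pair.
Rps18: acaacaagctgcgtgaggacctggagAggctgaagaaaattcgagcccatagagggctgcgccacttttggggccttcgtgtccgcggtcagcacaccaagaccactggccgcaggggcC
Rps18-ps3: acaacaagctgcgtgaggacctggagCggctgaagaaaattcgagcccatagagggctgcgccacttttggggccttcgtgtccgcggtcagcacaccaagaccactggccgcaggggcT
Rpl6: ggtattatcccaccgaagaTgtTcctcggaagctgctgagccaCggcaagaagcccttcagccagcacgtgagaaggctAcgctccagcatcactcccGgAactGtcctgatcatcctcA
Gm6807: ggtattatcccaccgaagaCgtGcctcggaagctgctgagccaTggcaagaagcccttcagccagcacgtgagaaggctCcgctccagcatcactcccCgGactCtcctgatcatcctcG
Rpl28: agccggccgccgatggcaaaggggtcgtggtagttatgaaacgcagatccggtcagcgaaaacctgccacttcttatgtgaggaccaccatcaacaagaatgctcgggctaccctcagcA
Gm10051: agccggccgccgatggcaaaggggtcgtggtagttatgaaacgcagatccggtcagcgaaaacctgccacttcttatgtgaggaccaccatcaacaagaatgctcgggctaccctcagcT
Rps18 lies on chromosome 17 and Rps18-ps3 on chromosome 8, Rpl6 on 5 and Gm6807 on 19, and Rpl28 on 7 and Gm10051 on 5. Over the aligned coding part Rps18-ps3 differed from Rps18 at 3 of 456 bases, Gm6807 from Rpl6 at 15 of 885, and Gm10051 from Rpl28 at 1 of 411. The longest stretches without a difference were 180, 160 and 273 bases.

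These pairs were chosen because the copy rose and the parent fell, so their shares only describe them. Rps18-ps3 held 15.2, 11.9, 15.2, 9.42 and 9.005% of the counts of both genes in HG2 and HG3, against 5.16, 4.31 and 7.92% in HG1. Gm6807 held 11.2, 11.5, 9.46, 9.88 and 9.32% of the counts of both genes in HG2 and HG3, against 4.58, 3.34 and 6.65% in HG1, and Gm10051 held 17.7, 15.0, 12.9, 9.26 and 9.89% of the counts of both genes in HG2 and HG3, against 4.61, 4.37 and 7.19% in HG1. HG1 replicate 3 was the highest of HG1 each time. Over 192 genes annotated or named as pseudogenes and with a tested parent gene, 28 rose and 3 fell, and their median log2 change was 0.39. Their 113 parents had 5 rises and 36 falls with a median of -0.24. For 25 of the 28 rising copies the parent's log2 change was below 0 (89.3%), near the share of all parents (91 of 113, 80.5%). For 13 it passed as a fall, and these copies stand on 11 distinct parents.

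**Figure D4:**
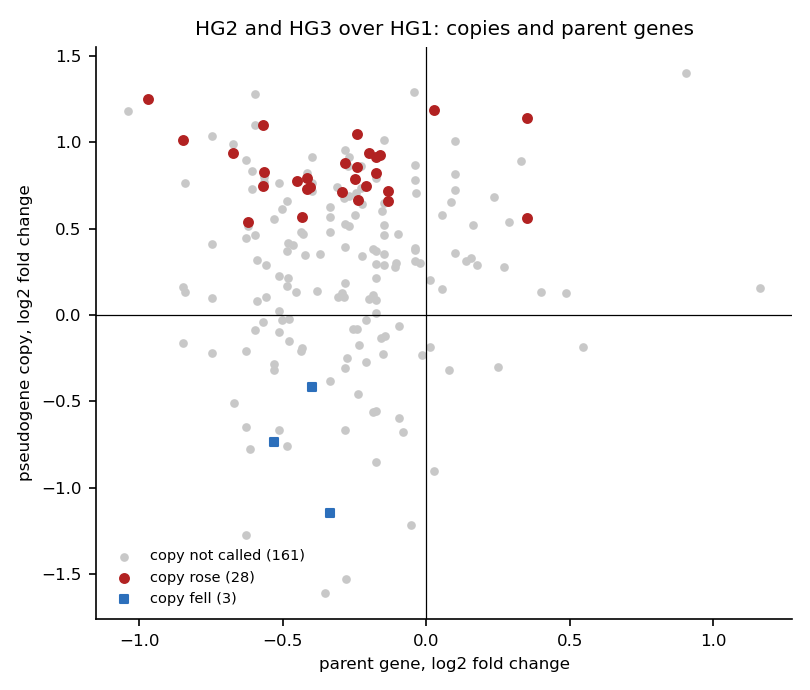
Log2 fold change of HG2 and HG3 over HG1 for 192 pseudogenes (vertical) and their parent genes (horizontal), 1 point per pseudogene. The 28 copies that rose lie mostly left of 0, where the parent was lower in HG2 and HG3.

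When the counts of each gene and its near-identical copies were summed, a setting chosen after seeing the data, 17 of the 77 Rpl and Rps genes passed as falls in place of 27, and the median log2 change was -0.14 in place of -0.24. The sums still fell for Rps27a (-0.52, adjusted p = 5.79e-05), Rps23 (-0.70, 7.32e-05) and Rpl3 (-0.47, 0.000474), while those of Rpl28 (-0.26, 0.0694), Rpl10a (-0.29, 0.120) and Rps18 (-0.17, 0.272) did not pass. Of the rising copies 3 belonged to a sum that passed as a rise (Rps10-ps1 and Rps10-ps2, which share 1 sum, and Ppp1ccb) and 4 to a sum that passed as a fall. Among the 15 Rpl and Rps genes without a copy, 1 rose, 0 fell and the median was -0.02. With the share of counts on processed pseudogenes as a covariate, 2 genes of all 11939 passed, Lmnb1 (adjusted p = 0.0487) and Tmem63b (0.0487), and Snrpd3 reached 0.0718. That share and the dose groups rise and fall together except in HG1 replicate 3, and their parts cannot be told apart.

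Taken apart, without the shared library, HG2 differed from HG1 in 177 rises and 153 falls (1.44% and 1.25% of 12260 genes), and HG3 from HG1 in 9 rises and 2 falls (0.0734% and 0.0163%). Both comparisons use the same HG1 libraries, so they are not independent. Of the 26 listed cytosolic ribosomal protein genes 11 fell in HG2 (median -0.37) and 0 in HG3 (median -0.12). Of the 22 proteasome genes 5 fell in HG2 and 0 in HG3, and of the 31 lysosome and autophagy genes 3 and 1. The 2 falls in HG3 were Ppp1ca and Psap, so Lamp1 did not pass there. Snrpd3 had a log2 change against HG1 of 1.07 ± 0.11 in HG2 and 0.67 ± 0.11 in HG3, Ppp1ca of -0.77 ± 0.14 in HG2 and -0.79 ± 0.14 in HG3, and Psap of -0.55 ± 0.10 in HG2 and -0.49 ± 0.10 in HG3, and each passed in both. Ndufa12 (0.47 ± 0.11 in HG2 and 0.65 ± 0.11 in HG3) also passed in both, as did Rpl9-ps6 (1.38 ± 0.17 in HG2 and 0.90 ± 0.17 in HG3) and Gm15536 and Gm5781. In HG2 the rule also took Bst2, Ppp1ccb, Gm9531, mt-Tc (1.45 ± 0.26), a mitochondrial transfer RNA, and Vmn2r110 (1.44 ± 0.41), a pheromone receptor gene, among rises. Among falls it took Nup133 (-1.18 ± 0.27), a nuclear pore protein, Rasl11b, Man1c1 and Smo. The counts moved with 1 library: without HG1 replicate 3 there were 301 rises and 265 falls in HG2 and 162 and 97 in HG3, and without HG1 replicate 2 67 and 44 in HG2 and 0 and 0 in HG3. With the shared library added to HG3, that dose had 75 rises and 81 falls.

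HG3 and HG2 did not differ in any gene at an adjusted p under 0.05 (0.0% of 12260; 718 had an unadjusted p under 0.05, and DESeq2 called 0). The lowest p values among genes of 5 CPM or more were those of Rps7, Igha and Psma2. Rps7, a small-subunit ribosomal protein, was at 478 and 537 CPM in HG3, against 362 and 392 CPM in HG2 (log2 change 0.42 ± 0.11, adjusted p = 0.789). Psma2, of the 20S proteasome, was at 323 and 373 CPM in HG3 and 260.4 and 256 CPM in HG2. Igha, an immunoglobulin heavy chain gene, was at 1.05 and 0 CPM in HG3 and 5.93 and 5.68 CPM in HG2, which are few counts per library. At the median gene the standard error of this comparison was 0.25 (log2), so small differences between the doses were not detectable.

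The untreated high-glucose libraries, which entered the tests above only in the fits over all 23 libraries, show on which side the control lay. For 138 of the 206 rises and 156 of the 214 falls, the HGC mean on the log2 scale was nearer to that of HG2 and HG3 than to that of HG1. That is 67.0% and 72.9%, beside 55.8% of all tested genes. Of the genes named above, Snrpd3 was at 173 to 222 CPM and Lmnb1 at 284 to 357 CPM in HGC, between or partly within the ranges of the groups. Psap, at 792 to 1029.9 CPM in HGC, was near HG1. The genes were chosen for a difference from HG1, so these counts are a description.

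In normal glucose the same step, from dose label 1 to labels 2 and 3, gave no call (0.0% of 12720 genes, 526 with an unadjusted p under 0.05). It was tested in the fit of the treated libraries of both media, whose spread was 0.148, against 0.118 in the main fit. In that joint fit the high-glucose step had 57 rises and 75 falls (1492 genes with an unadjusted p under 0.05). The calls of the main fit are therefore not a like count to set beside the normal-glucose step. Without NG3 replicate 3 the spread was 0.130, and the normal-glucose step again gave no call. Of the genes called in high glucose in the main fit, 145 of 206 rises and 122 of 214 falls had the same sign in normal glucose (70.4% and 57.0%, beside 53.1% of 10404 genes of 5 CPM or more). The median log2 changes were 0.07 for the rises and -0.03 for the falls, against 0.56 and -0.48 in high glucose. The genes were chosen for passing in high glucose, which enlarges their medians there and not in normal glucose. These medians are therefore a description and do not measure a difference between the media. The steps share no library, and across those 10404 genes, which are not independent, their correlation was 0.025 (Pearson) and 0.053 (Spearman).

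The difference between the media was itself tested, and passed for 1 gene of 12720 (0.00786%). That gene was Smo, which encodes Smoothened, the membrane protein that passes on the Hedgehog signal. In high glucose Smo was at 56.1, 50.3, 60.2, 56.6 and 75.0 CPM in HG2 and HG3, against 103, 147 and 80.5 CPM in HG1. Every library of HG2 and HG3 was below every HG1 library (log2 change -0.88 ± 0.15 SE, adjusted p = 0.00159). In normal glucose it was at 71.1 to 90.7 CPM in NG2 and NG3 (median 80.5 CPM, n = 6), against 58.9 to 76.0 CPM in NG1, which overlap. The step was -0.88 ± 0.14 in high and 0.27 ± 0.14 in normal glucose, a difference of -1.15 ± 0.20 (adjusted p = 0.0232). In the controls Smo was at 41.5 to 70.5 CPM in HGC and 61.9 to 87.8 CPM in NGC. HG1 replicates 1 and 2 were the highest of the 23 libraries. The call was lost in 10 of 17 fits that left out 1 library (adjusted p 0.000505 to 0.547), with the highest p without HG1 replicate 2, the highest library. Without HG1 replicate 2 the difference was -0.89. It was also lost with the spread of all libraries (adjusted p = 0.172) and with a replicate block (0.0889).

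**Figure D5:**
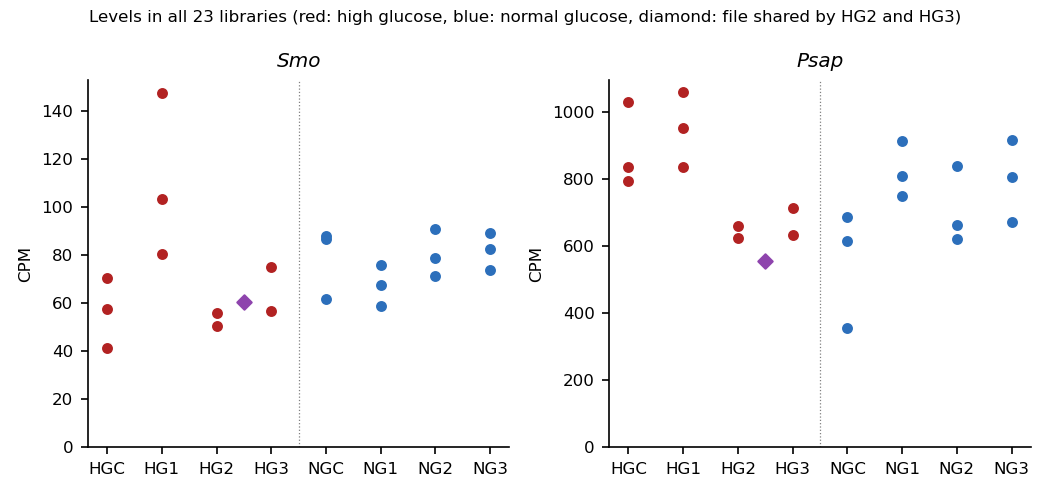
Level in CPM (vertical) of Smo and Psap in each of the 23 libraries, by group in the order control and dose labels 1 to 3, for high glucose and normal glucose. The diamond is the library deposited under both HG2 and HG3. In Smo the HG1 libraries lie above all other high-glucose libraries, and in Psap the HG2 and HG3 libraries lie below HG1 and HGC.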

How the data were processed

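Polyadenylated RNA was extracted with PureLink kits and DNase and made into libraries with the VAHTS Universal V8 kit, per the labels' protocols. The deposited counts are raw reads per gene, for 56941 gene IDs, with 5 summary lines that were dropped. Per the submitters' processing notes, the tools were STAR 2.7.5c and HTSeq 1.99.2 on build GRCm39, with FastQC 0.11.9 and DESeq2 3.16 listed beside them. Whether counting used strand is not given, so reads of a gene and of its antisense partner cannot be told apart. In the 8 libraries, reads outside genes came to 15.7 to 20.2%, ambiguous reads to 3.52 to 3.84% and reads at several places to 16.6 to 17.7%, and 1 ID without a symbol, ENSMUSG00000119584, held 6.45 to 10.3% of gene counts.

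Counts were tested with edgeR 4.0.16 in R 4.3.3 (TMM, default low-count filter, robust quasi-likelihood test), with Benjamini-Hochberg adjustment over all tested genes and a threshold of 0.05. Tests were also run on simulated counts with a common spread and no shift of a whole library. Such counts cannot show how far the calls in these libraries hold. CPM are counts scaled by the library totals of gene counts after adjustment with TMM factors over all 23 libraries. Each ± beside a log2 change is a standard error. Symbols were matched for 51948 IDs. Copies and biotypes came from GENCODE M21, whose build differs from that of the files, so no coordinates are given. The genes named were the 10 largest rises and 10 largest falls with at least 5 CPM and no overlap, and up to 3 members with the lowest p of each of 45 lists; others were picked after their values were seen, and some are not reported here. The members, lists and tests were chosen with earlier results of these data known. Alternatives were DESeq2 1.42.0, other scalings, filters, fits over all 23 libraries, a replicate block and leaving out each library. Settings on copies, pseudogene share and GC were added after seeing the data.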

Additional observations from a re-analysis of the deposited data

Results flagged for a closer look

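Of 130 sets of 5 values from HG2 and HG3 tested for a library far from the others, 8 gave one, and chance alone gives about 1 in 20. HG2 replicate 1 was the highest for Insr (20.46 CPM) and Igf1r (259.2 CPM), receptors of insulin and IGF1 that did not differ between the doses at the threshold. It was the lowest of HG2 and HG3 for Axl (462.6 CPM), nearest to HG1. HG3 replicate 3 was the highest for mt-Cytb (7866 CPM), Mcu (189.1 CPM) and Rpl28 (447.7 CPM), which was toward HG1 for mt-Cytb and Rpl28 and away from it for Mcu. HG3 replicate 1 was the lowest for Malat1 (3229 CPM), and the shared library stood apart for Mt2 (395.2 CPM).

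For Smo the step from dose label 1 to labels 2 and 3 differed between high and normal glucose by -1.15 on the log2 scale, the only such gene in the test of that difference.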

How the results depend on the processing

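In the pooled comparison 420 genes were called. The count was 78 with all 23 libraries in the fit, 2 with the pseudogene share as covariate, and 72 to 670 when 1 library was left out, lowest without HG1 replicate 2 and highest without HG1 replicate 3. Replicate numbers did not pair the libraries (correlations of deviations within ±0.06). With a replicate block the count was 283, or 190 with the shared library left out as well, and with the block HG3 against HG1 had 0 calls, HG3 against HG2 6 and the dose step by medium 0. For HG2 against HG1, 330 calls became 11 with all libraries and 505 with the shared library in HG2. They became 212 without pseudogenes and genes with copies, and 91 to 566 with 1 library left out. For HG3 against HG1, 11 calls became 41 with DESeq2, 120 with no low-count filter, 0 with all libraries, 28 or 156 with the shared library in HG2 or in HG3, and 0 to 259 with 1 library left out. HG3 against HG2 had 1 call with no low-count filter. The dose step by medium, with 1 call, had 20 with DESeq2, 62 with no filter, 0 with all libraries and 0 to 14 with 1 library left out.

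Under the pseudogene share as covariate 4 of the 420 called genes changed sign to a value near 0: Calu (0.01), Rpl39 (0.04), Gm9703 (-0.03) and Bc1 (-0.01), named after their values were seen. Among genes that were not called, with that covariate Hk1 was -0.11, Igf1r -0.069, Irs1 0.075, Npy1r 0.26 and Foxo1 -0.011. Hk1 was also -0.023 with HG2 and HG3 weighted equally and -0.015 with the GC trend removed. Summed with their parent genes, Gm5879 was -0.47, Gm9843 -0.16, Rps27rt -0.16, Rps18-ps3 -0.17, Gm10051 -0.26, Rpl31-ps8 -0.10, Gm10275 -0.16 and Rpl37rt -0.16, since a copy then takes its family's value, and 28 of the 420 called genes had the opposite sign in this setting. Leaving out 1 library gave -0.15 to 0.15 for Hk1, -0.10 to 0.15 for Foxo1 and -0.031 to 0.36 for Prkaa2. It gave differences of -142 to 26.9 in genes with a count, -0.0966 to 0.00243 points in ambiguous reads and -0.178 to 0.215 points in reads at several places. The causes of these changes were not tested. With 3272671 to 3915059 gene counts a library, small changes of low genes were not detectable.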

Other observations

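The share of gene counts on processed pseudogenes varied over the whole series. Over all libraries of a group it was 1.33 to 1.49% in HG2 (shared library included), 1.33 to 1.35% in HG3, 0.958 to 1.34% in HG1 and 1.15 to 1.20% in HGC. In normal glucose it was 1.12 to 1.29% in NG2, 0.863 to 1.51% in NG3, 1.11 to 1.20% in NG1 and 1.05 to 1.42% in NGC, so NG3 alone spanned a range as wide as that between HG2 and HG1.

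Genes that rose in HG2 and HG3 had a median transcript GC content of 52.9% and genes that fell 49.3%, beside 49.0% of all tested genes. Their median transcript lengths were 2200 bases for rises and 1877 bases for falls, beside 3341 bases for all tested genes.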
